A study of Mus musculus with 9 samples.

Results

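The interneurons of the striatum were followed through 10 marker genes, picked by symbol as markers of the cholinergic, parvalbumin and somatostatin classes, their developmental regulators and the small class that carries *Th*. All 10 were found among the 15464 genes of the table, and all 10 were among the 14239 genes tested, which reached a normalized count of 10 in 3 or more libraries. They were listed by name and not picked by a threshold on any value.

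The striatum of adult male C57BL/6J mice, 10 to 12 weeks old, was profiled by RNA-seq in 9 mice, 1 mouse per library. The groups were 3 wild-type mice (WT, 2 intact *Shank3* alleles), 3 heterozygous mice (HET, 1 intact allele) and 3 knock-out mice (KO, 0 intact alleles) of the *Shank3B* line, and the labels name no treatment. The deletion is constitutive and removes an internal run of exons of *Shank3*, the gene of an excitatory postsynaptic scaffold, so every cell type of the mouse carries it. Values are normalized counts, the read counts of a gene divided by a library's size factor, and differences are log2 fold changes of normalized count + 1.

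Most striatal neurons are medium spiny projection neurons, and interneurons are a small minority among them. Cholinergic interneurons make acetylcholine and set the tone of dopamine release, parvalbumin interneurons give fast inhibition onto the projection neurons, and a further class releases somatostatin, neuropeptide Y and nitric oxide. All of these arise largely from the medial ganglionic eminence and neighbouring progenitors of the embryonic ventral forebrain, where *Lhx6* and *Lhx8* direct the choice between the GABAergic and the cholinergic fate.

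None of the 10 genes was called different between genotypes in limma's test with Benjamini-Hochberg adjustment over all genes, and neither was any other of the 14239 genes tested. *Shank3*, higher in every KO library than in all others, was not called either, whereas the paper's own test on counts called it in KO. In KO against WT the log2 fold change of *Shank3* was 0.54, with an unadjusted p of 0.00195 and an adjusted p of 0.999 by limma. The absence of calls therefore does not show that a gene is unchanged. The 4 cholinergic genes had lower means in KO than in WT or HET mice, as had 13 of 14 markers of the projection neurons between KO and WT, and for *Slc18a3* and *Lhx8* the sign against WT turned when 1 library was left out (to 0.046 and 0.094 on the log2 scale). *Sst* was higher and *Nos1* lower in every KO library than in every WT library, where 4.54% of all genes showed no overlap either, and *Pvalb*, *Npy*, *Lhx6* and *Th* overlapped between all genotypes. *Chat* and *Lhx8* varied together from mouse to mouse, and so did *Chat* and *Slc5a7*. In bulk tissue, fewer cells of a type and less RNA per cell cannot be told apart.

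The cholinergic genes lie on 3 chromosomes of GRCm38. *Chat*, the gene of choline acetyltransferase, spans chr14:32408203-32465989 on the minus strand, and *Slc18a3*, the gene of the vesicular acetylcholine transporter, lies within that span on the same strand as 1 exon at chr14:32462438-32464850. None of the 2413 bases of this exon is shared with an annotated *Chat* exon in any of the 8 *Chat* transcripts, so reads from spliced *Chat* and from *Slc18a3* can be assigned separately, while reads from unspliced *Chat* could fall on *Slc18a3*. *Slc5a7*, the gene of the high-affinity choline transporter, lies at chr17:54273590-54299034 and *Lhx8*, a LIM homeobox gene of cholinergic neurons, at chr3:154306294-154330659, both on the minus strand. The bases upstream of the RefSeq start are shown because these 4 genes are compared as a group below, and they are cut where the GENCODE gene begins. Sequences are from RefSeq on GRCm38.p6, written 5′ to 3′ on the strand of the gene, with capitals for the short form TGACG of the cAMP response element (here on the opposite strand, CGTCA) and for TATAAA.
*Chat*, chr14:32465990-32466159, minus strand: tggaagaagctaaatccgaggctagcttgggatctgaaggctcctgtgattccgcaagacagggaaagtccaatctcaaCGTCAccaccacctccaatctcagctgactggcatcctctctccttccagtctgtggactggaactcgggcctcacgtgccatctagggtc
*Slc18a3*, chr14:32464851-32465100, minus strand: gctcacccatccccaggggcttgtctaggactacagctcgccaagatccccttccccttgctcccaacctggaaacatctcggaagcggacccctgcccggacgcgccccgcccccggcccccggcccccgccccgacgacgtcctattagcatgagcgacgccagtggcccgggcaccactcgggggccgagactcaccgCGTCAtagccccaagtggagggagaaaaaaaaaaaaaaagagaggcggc
*Slc5a7*, chr17:54299035-54299284, minus strand: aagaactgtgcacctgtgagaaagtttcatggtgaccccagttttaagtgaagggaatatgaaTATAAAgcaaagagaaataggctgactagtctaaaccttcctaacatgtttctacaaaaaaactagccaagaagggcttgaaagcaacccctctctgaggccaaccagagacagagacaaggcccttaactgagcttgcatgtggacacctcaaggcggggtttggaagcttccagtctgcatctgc
*Lhx8*, chr3:154330660-154330810, minus strand: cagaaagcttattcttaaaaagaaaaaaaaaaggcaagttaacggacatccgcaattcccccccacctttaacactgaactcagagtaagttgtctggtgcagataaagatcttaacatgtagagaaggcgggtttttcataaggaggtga
The short element was found upstream of *Chat* and *Slc18a3*, TATAAA upstream of *Slc5a7*, and neither upstream of *Lhx8*. The homeodomain core TAATTA was found on neither strand of any of the 13 promoters of the 10 genes, against 4.84% of all 32851 mouse promoters of the same length.

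The remaining genes are *Pvalb* (chr15:78191114-78206400, minus strand), *Sst* (chr16:23889573-23890958, minus), *Npy* (chr6:49822710-49829507, plus), *Nos1* (chr5:117781032-117958840, plus), *Lhx6* (chr2:36081953-36105408, minus) and *Th* (chr7:142892752-142931128, minus). *Pvalb* shares chromosome 15 with *Shank3*, which lies at chr15:89499623-89560261 on the plus strand. The complete cAMP response element TGACGTCA, a palindrome bound by CREB and known from the somatostatin gene, was found in the 250 bases upstream of the RefSeq starts of *Sst* and of *Th*. These starts lie 114 bases (*Sst*) and 31133 bases (*Th*) inside the GENCODE spans given above, so the windows overlap those spans. The 30 bases around it are shown with the element in capitals.
*Sst*, chr16:23890874-23890903, minus strand: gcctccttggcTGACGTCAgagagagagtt
*Th*, chr7:142900022-142900051, minus strand: cagaggggcttTGACGTCAgcctggccttt
The element began 48 bases before the RefSeq start of *Sst* and 45 bases before that of *Th*. It was present in 2 of the 13 promoters and in 1.55% of all promoters. The short element TGACG, which the complete one contains on both strands, was present in 5 of the 13, those of *Chat*, *Slc18a3*, *Sst*, *Nos1* and *Th*, and in 17.8% of all. TATAAA was present in 1 of the 13 and in 12.4% of all. These matches describe letters and not binding.

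Libraries had sums of normalized counts from 3.08e+07 to 3.38e+07, which says nothing of their depth in reads. HET replicate 3 and KO replicate 3 stood apart from the other 7 libraries on the first principal component of all tested genes (33.6% of the variance, with positions of 33.8 and 34.2 against a range from -17.0 to 1.35). Results are therefore also given without both. *Shank3* itself, summed over the whole gene, was 7209, 8812 and 6043 in WT, 7575, 7098 and 8050 in HET and 10237, 10798 and 10578 in KO. Its values were higher in every KO library than in all others, and since the sum includes the exons that are not deleted, it does not check the labels. The markers of medium spiny neurons were present in every library, with sums from 103347 to 207133. Markers of cortical glutamatergic neurons were present in every library too, with sums from 40059 to 63078. The tissue label was thus met for striatal neurons, while the share of neighbouring tissue was not measured.

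The peptide genes dominated the order of levels. Per kilobase of exon, the mean WT normalized count was 6162 ± 224 (SD, n = 3) for *Sst*, the gene of somatostatin, and 4082 ± 623 for *Npy*, the gene of neuropeptide Y. *Pvalb*, the gene of the calcium buffer parvalbumin, followed at 502 ± 130 per kilobase. *Nos1*, the gene of neuronal nitric oxide synthase, stood at 189 ± 8.8 and *Lhx6*, the LIM homeobox gene of medial ganglionic eminence interneurons, at 122 ± 4.7 per kilobase. Each of these 5 genes had all its WT libraries above those of the next gene in the order. The lower 5 were *Slc5a7* (89.6 ± 28.9 per kilobase), *Th* (85.7 ± 36.3), *Chat* (69.0 ± 24.2), *Slc18a3* (66.9 ± 24.4) and *Lhx8* (34.0 ± 13.9), and neighbours among them overlapped. Dividing by the longest transcript in place of all exons gave 114 per kilobase for *Chat* and placed it sixth.

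**Figure D1:**
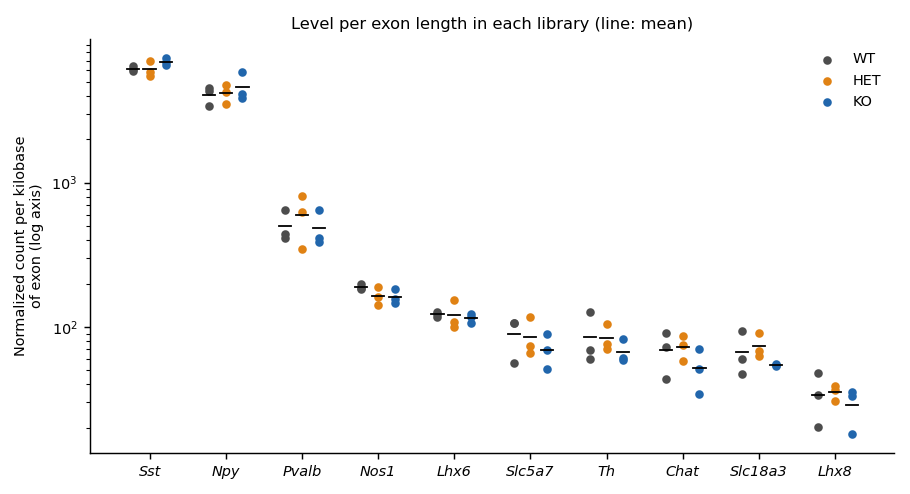
Normalized count per kilobase of exon on a log axis for each of the 10 genes, with 1 point per library (grey WT, orange HET, blue KO) and a line at the mean of each genotype. *Sst* and *Npy* lie above the other 8 genes in every library, and *Lhx8* has the lowest mean in each genotype.

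*Chat* had normalized counts of 342, 429 and 203 in the WT mice, 405, 272 and 353 in the HET mice and 328, 239 and 161 in the KO mice. The 2 lowest libraries were KO replicate 3 and WT replicate 3, and the genotypes overlapped. Taken from means of log2 values, KO was at 0.753 times the WT level (log2 fold change -0.41, SE 0.31, 95% interval -1.10 to 0.28). The adjusted p was 0.999 by limma and the exact permutation p 0.4. Between KO and HET the log2 fold change was -0.54 (-1.23 to 0.15). HET and KO libraries of the same number deviated together over all genes (r 0.52, 0.28 and 0.51), though pairing by number was not established. In each of these 3 pairs *Chat* was lower in KO, with differences of -0.30, -0.19 and -1.13 on the log2 scale. With a replicate block the unadjusted p in limma was 0.0566 and the adjusted p 1.00. Between HET and WT the log2 fold change was 0.13 (-0.56 to 0.82).

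*Slc5a7* measured 600, 600 and 317 in WT, 662, 371 and 416 in HET and 500.3, 390.2 and 288 in KO. Its lowest libraries were again KO replicate 3 and WT replicate 3. The log2 fold change of KO against WT was -0.34 (SE 0.30, -1.02 to 0.34), that of KO against HET -0.29 (-0.96 to 0.39) and that of HET against WT -0.053 (-0.73 to 0.62). The genotypes overlapped in all 3 comparisons.

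*Slc18a3* measured 145, 227 and 113 in WT, 153, 163 and 219.7 in HET and 134, 129 and 132 in KO. The 3 KO libraries were nearly equal and lay below all 3 HET libraries but between the WT libraries. KO against HET gave a log2 fold change of -0.42 (SE 0.24, -0.96 to 0.13) with an adjusted p of 1.00 by limma and an exact permutation p of 0.1, the smallest that 3 against 3 mice allow. Against WT, the value was -0.23 (-0.77 to 0.31) in KO and 0.19 (-0.36 to 0.73) in HET.

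*Lhx8* was the least abundant, with 85.7, 121 and 51.0 in WT, 92.3, 77.8 and 97.9 in HET and 89.3, 83.9 and 45.8 in KO. Its low values in WT replicate 3 and KO replicate 3 repeated the order seen for *Chat* and *Slc5a7*. Log2 fold changes were -0.21 (SE 0.34, -0.96 to 0.54) for KO against WT, -0.34 (-1.09 to 0.41) for KO against HET and 0.13 (-0.62 to 0.88) for HET against WT. The sign for KO against WT turned to 0.094 without HET replicate 3 and KO replicate 3.

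Single libraries moved these values. Without WT replicate 3 the log2 fold change of KO against WT was -0.71 for *Chat* and -0.65 for *Slc5a7*, with unadjusted p of 0.0356 and 0.0452 in limma, and both adjusted p remained at 1.00. Without KO replicate 3 the same values were -0.15 and -0.13. Without WT replicate 2 the value of *Slc18a3* was 0.046.

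*Pvalb* measured 429, 460.1 and 677 in WT, 841, 652 and 362 in HET and 674, 428 and 404 in KO. The spread within each genotype exceeded the differences between the genotype means, and all 3 genotypes overlapped. The log2 fold change was 0.19 (SE 0.31, -0.50 to 0.88) in HET and -0.066 (-0.76 to 0.63) in KO against WT, and -0.26 (-0.95 to 0.44) for KO against HET. *Lhx6*, expressed in the parvalbumin and the somatostatin class, measured 594, 605 and 562 in WT, 520, 480.2 and 738 in HET and 559, 511 and 592 in KO. HET replicate 3 was its highest library, and the WT mice lay close together. Its log2 fold changes were -0.045 (SE 0.15, -0.39 to 0.30) in HET and -0.085 (-0.43 to 0.26) in KO against WT.

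*Sst* measured 4404, 4620.1 and 4304 in WT, 3987, 5020 and 4240.5 in HET and 4740.2, 4968 and 5259 in KO. Every KO mouse was above every WT mouse, while HET mice spread over both ranges. Taken from means of log2 values, KO was at 1.12 times the WT level (log2 fold change 0.17, SE 0.10, -0.06 to 0.39). The adjusted p was 0.999 by limma and the exact permutation p 0.1. KO against HET gave 0.18 (-0.042 to 0.41), and HET against WT -0.015 (-0.24 to 0.21), so that a change beyond 1.31-fold higher in KO or 1.16-fold higher in HET lay outside the intervals.

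*Npy* measured 1912, 2436 and 2584 in WT, 1992, 2414 and 2709 in HET and 2204, 2319 and 3304 in KO. KO replicate 3 was the highest library and the others overlapped. The log2 fold change was 0.038 (SE 0.18, -0.36 to 0.44) in HET and 0.16 (-0.24 to 0.56) in KO, and the latter became -0.019 without KO replicate 3.

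*Nos1* measured 2069, 2222 and 2039 in WT, 2111, 1573 and 1792 in HET and 1754, 2033 and 1645 in KO. Every KO mouse was below every WT mouse, though KO replicate 2 (2033) and WT replicate 3 (2039) were nearly equal. Taken from means of log2 values, KO was at 0.855 times the WT level (log2 fold change -0.23, SE 0.12, -0.50 to 0.047). The adjusted p was 0.999 by limma and the exact permutation p 0.1. HET against WT gave -0.22 (-0.49 to 0.054) with an exact permutation p of 0.3, and KO against HET -0.00724 (-0.28 to 0.27). Both comparisons with WT share the same 3 WT libraries. *Sst* and *Nos1*, which mark the same class, thus lay on opposite sides of WT in the KO mice. With 1 library left out, the values ran from 0.13 to 0.20 for *Sst* and from -0.31 to -0.16 for *Nos1*. Since KO and WT did not overlap for either gene, leaving out 1 library could not turn the sign.

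*Th*, the gene of the rate-limiting enzyme of dopamine synthesis, measured 165, 142 and 301 in WT, 166, 181 and 249 in HET and 139, 195 and 144 in KO. WT replicate 3 alone reached 301, and the other 8 libraries lay between 139 and 249. Log2 fold changes were 0.028 (SE 0.28, -0.60 to 0.65) in HET and -0.28 (-0.91 to 0.34) in KO, and the latter was 0.041 without WT replicate 3.

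**Figure D2:**
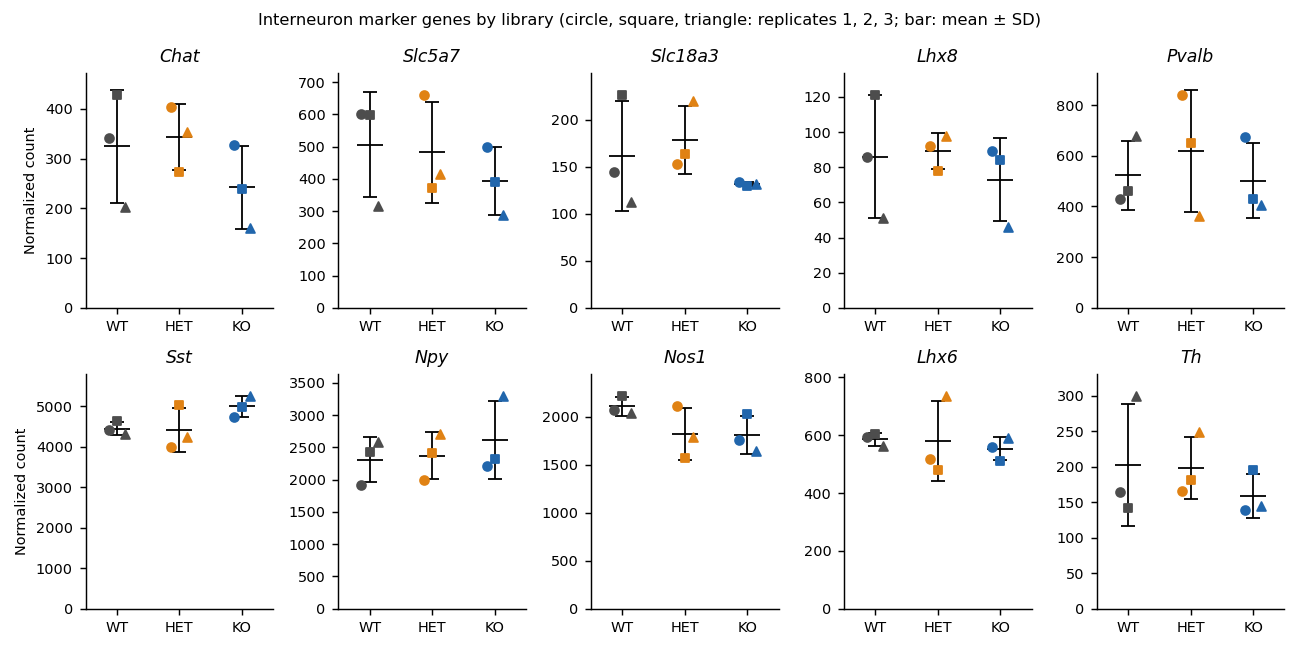
Normalized counts of the 10 genes in each library, from 0, by genotype (grey WT, orange HET, blue KO), with circle, square and triangle for replicates 1, 2 and 3 and bars for mean ± SD (n = 3). WT replicate 3 and KO replicate 3 are the lowest points for *Chat*, *Slc5a7* and *Lhx8*, and the KO points of *Sst* all lie above the WT points.

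By limma with adjustment, 0 of the 10 genes were called in HET against WT, KO against WT or KO against HET, and 0% of the 14239 genes were called in each. At an unadjusted p under 0.05, limma also called 0 of the 10 in each comparison, against 1.11% of all genes for HET against WT, 0.822% for KO against WT and 1.31% for KO against HET. With a replicate block by library number, KO against HET gave 318 genes in place of 186, again with 0 of the 10. Groups without overlap were found for 0 of the 10 in HET against WT (4.45% of all genes), 2 in KO against WT (*Sst* and *Nos1*, 4.54% of all genes) and 1 in KO against HET (*Slc18a3*, 4.45% of all genes). The median log2 fold change of the 10 was 0.033 in HET and -0.22 in KO against WT, beside -0.0027 and 0.0047 for all genes, and -0.27 for KO against HET beside -0.00099. The log2 fold change was below 0 for 4 of the 10 in HET, 8 in KO, and 8 in KO against HET, and comparisons that share a genotype are not independent.

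**Figure D3:**
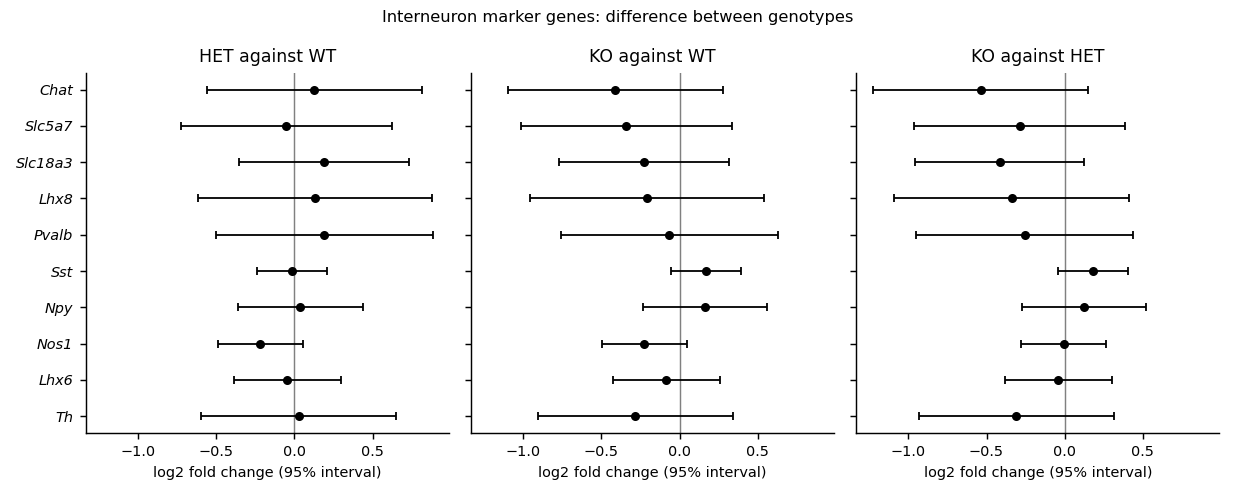
Log2 fold change with its 95% interval from limma for each gene in HET against WT, KO against WT and KO against HET. Every interval includes 0, and those of *Sst* and *Nos1* are the narrowest.

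The precision differed between classes. The SD of log2 values within genotypes was 0.11 for *Sst*, 0.16 for *Nos1*, 0.20 for *Lhx6* and 0.26 for *Npy*, with a median of 0.19 over all tested genes. For *Slc18a3* it was 0.33, for *Th* 0.40, and for *Slc5a7*, *Chat*, *Pvalb* and *Lhx8* between 0.46 and 0.48. Of all tested genes, 90.8% had a smaller SD than *Chat*, 91.4% a smaller one than *Pvalb* and 19.3% a smaller one than *Sst*. The *Chat* interval for KO against WT ran from 0.467-fold to 1.21-fold, so that a loss to less than 0.467 times the WT level lay outside it, and smaller differences were not resolved by 3 mice a group.

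The genes were next compared across the 9 mice, irrespective of genotype, in all 45 pairs. *Chat* and *Lhx8* gave a Pearson r of 0.93 (exact permutation p 0.000135, 0.00608 adjusted over the 45 pairs) and a Spearman rho of 0.95 (p 0.000353, adjusted 0.0159). *Chat* and *Slc5a7* gave an r of 0.91 (exact permutation p 0.000518, adjusted 0.0117) and a rho of 0.87 (p 0.00451, adjusted 0.101). Without KO replicate 3 and WT replicate 3, the libraries farthest from the median of *Chat*, r was 0.77 and 0.82. With HET replicate 3 and KO replicate 3 left out r was 0.87 and 0.95, and with genotype means removed 0.94 and 0.93. The Pearson test passed after adjustment for 2 pairs and the Spearman test for 1, and 7 pairs had an unadjusted Pearson p under 0.05. Leaving out KO replicate 3, alone or with HET replicate 3, left 0 pairs past the adjusted threshold, and in the latter case both of these pairs had an exact permutation p of 0.0536 after adjustment.

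The other cholinergic pairs were positive and did not pass. *Slc5a7* and *Lhx8* gave an r of 0.81 (exact permutation p 0.00562, adjusted 0.0765), *Slc18a3* and *Lhx8* 0.72, *Chat* and *Slc18a3* 0.68 (exact permutation p 0.0464, adjusted 0.294), and *Slc5a7* and *Slc18a3* 0.42. Differences between these r values were not tested. Among the somatostatin genes, *Sst* and *Npy* gave 0.50, *Sst* and *Nos1* -0.58 and *Npy* and *Nos1* -0.51. *Pvalb* and *Lhx6* gave -0.64. The strongest negative pair joined classes, *Slc5a7* and *Npy* with an r of -0.81 (exact permutation p 0.0068, adjusted 0.0765).

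**Figure D4:**
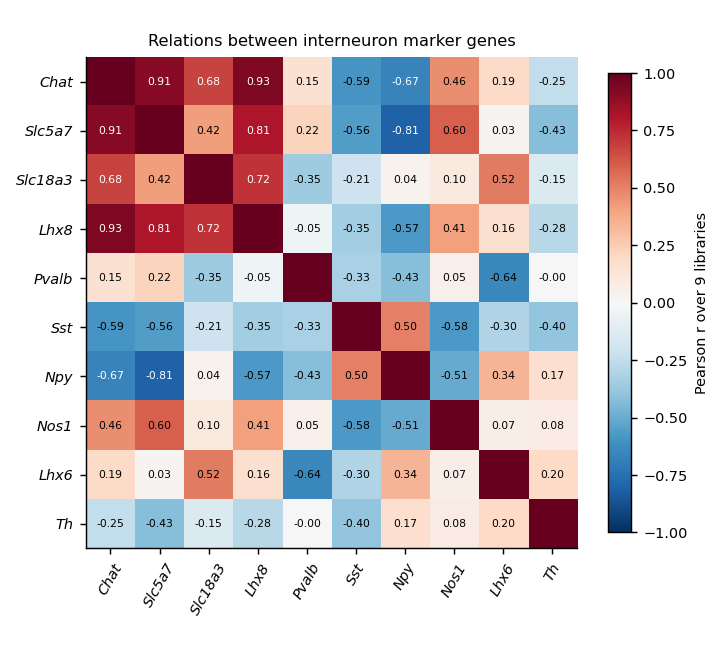
Pearson r of log2(normalized count + 1) over the 9 libraries for each pair of the 10 genes (red positive, blue negative, the value in each cell). *Chat*, *Slc5a7*, *Slc18a3* and *Lhx8* form a block of positive values from 0.42 to 0.93 in the upper left.

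The libraries low in cholinergic genes were also low in markers of the projection neurons. The summed normalized counts of 14 medium spiny neuron markers, all detected in every library, were 183361, 207133 and 106064 in WT, 183110, 141247 and 177018 in HET and 154048, 135440 and 103347 in KO. KO replicate 3 and WT replicate 3 were lowest and WT replicate 2 highest, as for *Chat*, and the mean log2 level of these markers ran from 12.2 to 13.1. Of the 14 markers, 13 had lower means in KO than in WT, with a median log2 fold change of -0.25 and 0 called by limma after adjustment. *Chat* was likewise lower in KO than in WT, and the part of these markers in that difference was not tested. The following fit is a description of the 10 genes beside these markers. With their mean log2 level as a covariate, chosen after seeing the data, *Chat* was -0.088 (SE 0.14, -0.40 to 0.22) in KO against WT, *Slc5a7* -0.034 (SE 0.16, -0.39 to 0.32), *Slc18a3* -0.087 (SE 0.23, -0.61 to 0.44) and *Lhx8* 0.12 (SE 0.20, -0.34 to 0.57). In the same fit *Sst* was 0.14, *Nos1* -0.16 and *Th* -0.46, and 0 of the 10 genes were called. A covariate measured in the same tissue can itself carry an effect of genotype.

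**Figure D5:**
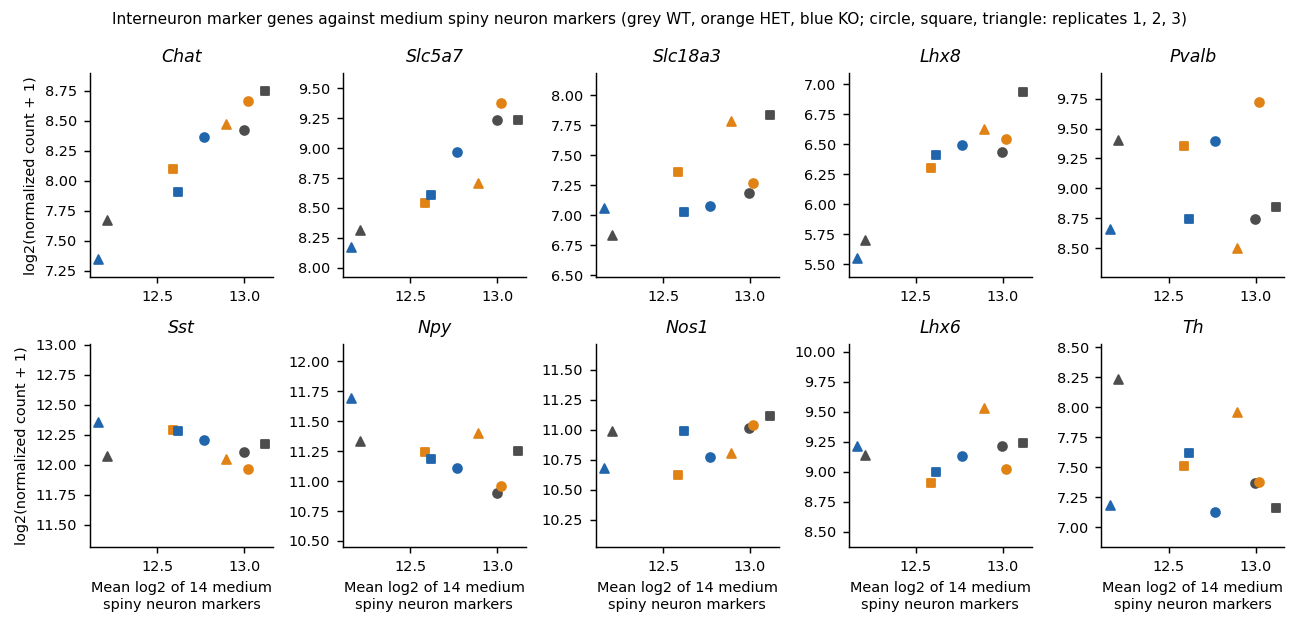
Log2(normalized count + 1) of each of the 10 genes against the mean log2 level of 14 medium spiny neuron markers, 1 point per library (grey WT, orange HET, blue KO, with circle, square and triangle for replicates 1, 2 and 3). *Chat*, *Slc5a7* and *Lhx8* are low where the markers are low, in WT replicate 3 and KO replicate 3, while *Npy* is highest in KO replicate 3.

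The genes whose pattern over the mice was most like that of *Chat* were sought among all 14238 others by Pearson r after genotype means were removed, as a description over 9 libraries that share their normalization and dissection. *Kcnip2*, *Smpd3* and *Gpat3* came first, each with an r of 0.98. *Lhx8* ranked 37 and *Slc5a7* 58, whereas *Slc18a3* ranked 1608 and *Nos1* 1764. The median r with *Chat* was 0.77 over the other cholinergic genes, 0.85 over the medium spiny neuron markers and -0.65 over markers of cortical glutamatergic neurons. High likeness to *Chat* was thus found for projection neuron markers as well as for cholinergic genes.

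*Sst* was most like *Angpt1* (0.99), *Fam180a* (0.98) and *Nwd2* (0.97). *Npy* ranked 2358 for it with an r of 0.43, and *Nos1* 13583 with an r of -0.67. The median r with *Sst* was 0.13 over the other somatostatin and nitric oxide genes and 0.49 over the cortical markers. The summed level of 10 cortical markers, none at 0 in all libraries, ranged from 44993 to 58284 in WT, from 40059 to 55336 in HET and from 44812 to 63078 in KO. KO replicate 3, with the highest *Sst* and *Npy*, was also highest in these markers, and their part in the *Sst* and *Npy* values was not tested.

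*Pvalb* was most like *Rida*, *Asb8* and *Tmbim4*, each with an r of 0.98. *Lhx6* ranked 12764 for it with an r of -0.69, and the median over the other parvalbumin and medial ganglionic eminence genes was 0.47. The globus pallidus and basal forebrain also express *Pvalb*, *Lhx6* and *Lhx8*, which are 3 of the 10 genes on the marker list for those regions. The summed level of that list ranged from 10670 to 10977 in WT, 10401 to 11569 in HET and 10573 to 11028 in KO, and *Kcna1* gave 7111 of the WT mean. The mean log2 level of the 7 genes of that list outside the 10 markers was 8.34, 8.42 and 8.19 in WT, 8.32, 8.36 and 8.25 in HET and 8.17, 8.25 and 7.97 in KO, and its part in the values of *Pvalb*, *Lhx6* and *Lhx8* was not tested.

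*Th* was most like *Gm3448* (0.99), *Glb1l2* (0.96) and *Plpp2* (0.96). The median r with *Th* was 0.73 over 8 oligodendrocyte markers and -0.56 over the medium spiny neuron markers. WT replicate 3, with the highest *Th*, had the highest summed oligodendrocyte level, and the sums ranged from 157588 to 257394 in WT, 220731 to 250110 in HET and 135445 to 241615 in KO. The part of these cells in the *Th* values was not tested.

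Other genes of the same classes were counted from lists, and limma with adjustment called 0 genes in each list in either direction in HET and in KO. Of 11 further cholinergic genes, 10 were tested, and the log2 fold change was below 0 for 8 of them in KO (median -0.16) and 2 in HET (median 0.044). The lowest in KO was *Slc17a8*, the gene of a vesicular glutamate transporter that cholinergic interneurons carry, at -0.40, and the highest *Ngfr*, the gene of a low-affinity neurotrophin receptor, at 0.25. In HET, *Ngfr* was highest at 0.37 and *Zic4*, a zinc finger gene, lowest at -0.48. The mean log2 level of this list was again lowest in KO replicate 3 and WT replicate 3.

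Of 10 further parvalbumin and medial ganglionic eminence genes, 6 had a log2 fold change below 0 in KO (median -0.0094) and 6 in HET (median -0.06). *Pthlh*, the gene of parathyroid hormone-related protein and a marker of striatal parvalbumin cells, had 112, 111 and 96.6 in WT, 108, 128 and 76.0 in HET and 92.0, 72.5 and 54.7 in KO. Every KO library was below every WT library, where 4.54% of all genes showed no overlap in either direction. The log2 fold change was -0.57, and -0.38 without KO replicate 3. The unadjusted p was 0.0428 in limma, where 0.822% of all genes were under 0.05, and it did not pass after adjustment. *Nkx2-1*, the homeobox gene that specifies this lineage, was lowest in KO at -0.72 (unadjusted p 0.147 in limma), and -0.24 without KO replicate 3. *Satb1*, a chromatin regulator of these interneurons, was highest at 0.16, and -0.078 without KO replicate 3. In HET, *Satb1* was again highest at 0.26.

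Of 9 further somatostatin and nitric oxide genes, 8 had a log2 fold change above 0 in KO (median 0.066) and 3 in HET (median -0.033). Some of these genes, among them *Nr4a2* and *Sstr2*, are also counted in the dopamine or receptor lists below. *Crhbp*, the gene of a protein that binds corticotropin-releasing hormone, was highest in KO at 0.33, and 0.14 without KO replicate 3. *Tacr1*, the substance P receptor gene, was lowest at -0.23, and -0.038 without WT replicate 2. In HET, *Gpr149* was highest at 0.41 (0.27 without WT replicate 3) and *Nr4a2* lowest at -0.27 (-0.047 without WT replicate 1).

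Among 14 genes of other interneuron classes, the median was -0.13 in HET and -0.058 in KO. *Ndnf* had an unadjusted p of 0.0256 in limma in HET, which did not pass after adjustment, where 1.11% of all genes were under 0.05. Its log2 fold change was -1.02, and -0.76 without HET replicate 1. It had 492, 208 and 486 in WT and 127, 206 and 228 in HET, so these groups overlapped. *Calb2*, the calretinin gene, was lowest in HET at -1.29, with 1295 in WT replicate 3 against 142 to 571 in the other 8 libraries, and it was -0.39 without that library. *Lamp5* was highest in both HET (0.25, and 0.025 without WT replicate 1) and KO (0.28, and 0.017 without KO replicate 3). *Trh*, the gene of thyrotropin-releasing hormone, was lowest in KO at -1.08, and -0.21 without KO replicate 3.

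Of 9 genes of dopamine synthesis and transport, 7 were tested, with medians of 0.087 in HET and -0.079 in KO. The vesicular monoamine transporter gene *Slc18a2* was highest in KO at 0.43, with 14.4, 42.4 and 2.5 in KO against 14.8, 3.0 and 13.7 in WT, and it was -0.42 without KO replicate 2. *Th* was lowest in KO at -0.28. In HET, *Gch1*, of cofactor synthesis, was highest at 0.40 (0.12 without WT replicate 2) and *Dbh* lowest at -0.28 (-0.04 without WT replicate 3). The 9 genes of GABA synthesis and transport had medians of -0.045 in HET and -0.015 in KO. *Dlx5* was lowest in both (-0.39 in each), and the HET value was -0.085 without HET replicate 3, while the KO value was 0.0695 without KO replicate 3. *Slc32a1*, the vesicular GABA transporter gene, was highest in HET at 0.15 (-0.11 without HET replicate 3) and *Dlx1* in KO at 0.33 (-0.11 without WT replicate 2). Of 19 genes of receptors and effectors for the interneurons' transmitters, 18 were tested, with medians of -0.05 in HET and 0.022 in KO. The nicotinic subunit gene *Chrna3* was lowest in both (-0.76 and -0.83), with 92.7 in WT replicate 3 against 15.0 to 41.5 in the other 8 libraries, and -0.23 and -0.29 without it. The somatostatin receptor genes *Sstr2* in HET (0.13) and *Sstr3* in KO (0.27) were highest, and -0.23 without HET replicate 3 and -0.033 without KO replicate 3.

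Marker lists of further cell types also held 0 genes called after adjustment by limma. The median log2 fold changes in HET and in KO against WT were 0.065 and -0.25 for medium spiny neurons, -0.067 and 0.0052 for cortical glutamatergic neurons, 0.012 and 0.073 for thalamus and septum, and 0.014 and -0.076 for globus pallidus and basal forebrain. They were 0.09 and 0.03 for astrocytes, 0.31 and 0.02 for oligodendrocytes, 0.027 and -0.041 for microglia, 0.12 and 0.052 for vessels and -0.13 and -0.0025 for choroid plexus, of whose 8 genes 4 were tested.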

How the data were processed

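RNA-seq libraries of striatum from 9 mice, 3 per genotype, were grouped by their labels. The authors quantified transcripts on GRCm38 with Salmon 0.9.1 and imported gene sums into R 3.6.0, and the deposited signal is normalized counts, made by dividing counts by DESeq2 1.19.11 size factors. A stranded kit was used, and the strand setting of the counting is not given in the sources used here. Whole reads could not be recovered from the values, so the count test that the paper ran was replaced by limma. With its own test and a further correction of the p values, the paper called genes in HET and in KO, *Shank3* among those in KO. Limma called 0 of the 14239 genes in either, and the source of this difference was not tested. Sequencing depth cannot be read from these values, counting intervals are not given, and the error of each value is the variation among mice.

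A pseudocount of 1 was added before taking log2. The test was limma 3.58.1 (R 4.3.3, trended prior) on the 14239 of 15464 genes that reached 10 in 3 or more libraries, with the 9 libraries fitted jointly and genotype as the only term. Two-sided p were adjusted by Benjamini-Hochberg over all genes tested, with a threshold of 0.05. Exact two-sided permutation tests over mice have a smallest p of 0.1. Correlations were tested with exact permutation of pairings in Python 3.11.15 with scipy 1.17.1. The fit was tested on simulated data. All columns of samples were used, 0 were left out, and no 2 libraries held the same values. Gene positions and exon lengths are from GENCODE on GRCm38.

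The genes and lists were chosen with earlier results of these data known. Named genes were the 10 markers, *Shank3*, the highest and lowest of each interneuron and transmitter list in HET and KO against WT, those with an unadjusted p under 0.05 against WT, and the 3 most like *Chat*, *Pvalb*, *Sst* and *Th*. 1 value that this rule would name is not reported here. For marker lists of other cell types counts, medians and sums are given. Same-numbered HET and KO libraries deviated together from their genotype means (r 0.52, 0.28 and 0.51). For WT libraries against those of the same number, r ran from -0.22 to 0.32. The 0.32, of WT and HET replicate 1, exceeds the 0.28 of HET and KO replicate 2. Libraries of different numbers were not compared, and no label says what a number marks. Pairing by number was therefore not established. Alternatives were other pseudocounts, filters and scalings, no trend, only the genotypes compared, a replicate block, and libraries left out, also for named genes of the lists (chosen after seeing the data).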

Additional observations from a re-analysis of the deposited data

How the results depend on the processing

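The adjusted count of genes stayed at 0 in all 3 comparisons, for all genes and for the 10 markers, under every alternative run. Other pseudocounts, filters, quantile or upper quartile scaling, no trend and fits of only the genotypes compared turned no sign among the 10 genes. With 3 mice a group, the intervals of *Chat*, *Slc5a7*, *Lhx8*, *Pvalb* and *Th* were wide, and the depth in reads is unknown. The cause of each change below was not tested.

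Genes at an unadjusted p under 0.05 by limma numbered 158 in HET against WT, 117 in KO against WT and 186 in KO against HET. With a replicate block they were 365, 310 and 318, with 0 of the 10 markers among them, and the block changed no other call. The block ties WT libraries as well to those of the same number, and pairing by number was not established. Without HET replicate 3 and KO replicate 3 they were 275 in HET and 219 in KO against WT, and 1 marker, *Lhx6*, came under 0.05 in HET. A mean of at least 50 gave 74 and no trend 176 in KO against WT. Leaving out each library in turn gave 119 to 394, 72 to 292 and 141 to 303 genes, and 0 to 1, 0 to 2 and 0 to 1 markers. These were *Nos1* in HET without HET replicate 1, *Chat* and *Slc5a7* in KO without WT replicate 3, *Nos1* in KO without KO replicate 2, and for KO against HET *Sst* without HET replicate 2, *Pvalb* without HET replicate 3 and *Chat* without KO replicate 1.

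In the 7 libraries that exclude HET replicate 3 and KO replicate 3, the log2 fold change changed sign in HET against WT for *Slc5a7* (0.0306), *Sst* (0.011), *Npy* (-0.063) and *Th* (-0.15), in KO against WT for *Lhx8* (0.094), *Pvalb* (0.0714) and *Npy* (-0.019), and in KO against HET for *Lhx8* (0.0303), *Nos1* (0.051) and *Lhx6* (0.098). With medium spiny neuron markers as a covariate it did so for *Lhx8* in KO against WT (0.12) and for *Slc5a7* (0.088), *Lhx8* (0.056), *Npy* (-0.024) and *Nos1* (0.0704) in KO against HET.

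Leaving out each library in turn changed signs in HET against WT for *Chat* (-0.17 to 0.36), *Slc5a7* (-0.36 to 0.11), *Slc18a3* (-0.038 to 0.46), *Lhx8* (-0.20 to 0.42), *Pvalb* (-0.074 to 0.53), *Sst* (-0.11 to 0.055), *Npy* (-0.092 to 0.16), *Lhx6* (-0.23 to 0.077) and *Th* (-0.19 to 0.35). It did so in KO against WT for *Slc18a3* (-0.45 to 0.046), *Lhx8* (-0.54 to 0.094), *Pvalb* (-0.30 to 0.14), *Npy* (-0.019 to 0.27) and *Th* (-0.50 to 0.041), and in KO against HET for *Pvalb* (-0.60 to 0.0082), *Npy* (-0.058 to 0.23), *Nos1* (-0.11 to 0.10) and *Lhx6* (-0.16 to 0.15). Pairs of markers past the adjusted threshold numbered 0 to 3, and 0 without HET replicate 3 and KO replicate 3. The r of *Chat* with *Lhx8* then ran from 0.87 to 0.97 and with *Slc5a7* from 0.88 to 0.96.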
